A study of Mus musculus with 2 samples.

Results

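The miR-17~92 cluster is a group of 6 miRNA hairpins, miR-17, miR-18a, miR-19a, miR-20a, miR-19b-1 and miR-92a-1, which are cut from a single primary transcript. It was examined in small RNA libraries of hearts from wild type C57BL/6 mouse embryos at embryonic day 9.5 (E9.5), sequenced as 2 replicates of 1 group. The hairpins were chosen by position, as all plus strand precursor entries in a window of 2500 bases on mm9 chromosome 14 that spans the cluster. This gave 7 of the 620 precursor entries listed in the tables, because miR-17 was entered as 2 overlapping precursors. The 6 hairpins were therefore counted once each, and all 6 were listed in both replicates. No treated, mutant or later stage sample stands beside these hearts, so the only contrast is replicate against replicate. The labels number the replicates but do not say whether they came from separate litters or how many hearts each holds, so spread between them may be technical.

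A miRNA hairpin is released from its primary transcript by the DGCR8 and DROSHA complex and cut by DICER into a duplex of a 5p and a 3p arm. The arm that is kept guides silencing through its seed, nucleotides 2 to 8, and the other arm is mostly degraded. The miR-17~92 cluster is known as a target of MYC that promotes proliferation and survival, and mice lacking it die around birth with heart and lung defects. Its members fall into 4 seed families. The miR-17 and miR-20a pair is known for repressing cell cycle regulators such as Cdkn1a, and miR-92a for repressing Itga5 in endothelial cells.

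The mature sequences are shown because members of a family differ at few positions, which decides how reads can be told apart. The consensus sequences of the deposited tables were the same in both replicates and equal to those of RefSeq in all 6 hairpins, with the seed in capitals.
miR-17-5p: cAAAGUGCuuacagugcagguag
miR-20a-5p: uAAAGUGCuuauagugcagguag
miR-18a-5p: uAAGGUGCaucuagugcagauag
miR-19a-3p: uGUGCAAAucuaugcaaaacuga
miR-19b-3p: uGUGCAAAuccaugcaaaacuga
miR-92a-3p: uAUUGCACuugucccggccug
Positions in the following comparisons are counted from 1 at the 5′ end, with the base of the miRNA named first written first. The miR-17 and miR-20a sequences differed at 2 of 23 positions (C1U and C12U), both outside the seed. Between miR-19a and miR-19b there was 1 difference (U11C). MiR-18a differs from miR-17 at 6 of 23 positions, of which A4G lies in the seed.

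The hairpins lie within 813 bases, in exon 2 (115442493 to 115445949) of the noncoding host gene Mir17hg, which GENCODE vM1 places at 115442101 to 115445949 on the plus strand of chromosome 14. In genome order, with the arm that held most reads in capitals and the rest of the precursor in lower case, the deposited precursors are as follows.
miR-17, chr14:115442906-115442965: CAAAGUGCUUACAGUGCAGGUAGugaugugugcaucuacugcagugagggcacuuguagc
miR-18a, chr14:115443089-115443152: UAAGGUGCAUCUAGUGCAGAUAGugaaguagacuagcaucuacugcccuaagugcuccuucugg
miR-19a, chr14:115443235-115443292: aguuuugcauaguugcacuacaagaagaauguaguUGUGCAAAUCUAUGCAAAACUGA
miR-20a, chr14:115443405-115443471: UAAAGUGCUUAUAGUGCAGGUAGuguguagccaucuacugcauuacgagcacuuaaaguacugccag
miR-19b-1, chr14:115443542-115443602: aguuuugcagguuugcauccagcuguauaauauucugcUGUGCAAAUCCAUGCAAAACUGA
miR-92a-1, chr14:115443659-115443718: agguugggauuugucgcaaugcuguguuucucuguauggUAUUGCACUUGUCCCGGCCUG
The reads lay mainly on the 5p arm in miR-17, miR-18a and miR-20a, and on the 3p arm in miR-19a, miR-19b-1 and miR-92a-1. Gaps between neighbouring hairpins ran from 56 bases (miR-19b-1 to miR-92a-1) to 123 bases (miR-17 to miR-18a). Folded with RNAfold, the precursors had minimum free energies between -29.5 kcal/mol for miR-92a-1 and -18.8 kcal/mol for miR-18a, and the median of all 620 entries was -24 kcal/mol.

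The deposited values are read counts per precursor, split into mature reads (on the main arm), star reads (on the opposite arm) and loop reads. Replicate 1 held 4942257 mature reads on 568 entries and replicate 2 held 4806179 on 523 entries, and a share below is the percent of those reads, a total in which a sequence listed at several loci enters at each of them. Among heart markers, the cardiomyocyte miRNAs miR-1a, miR-133a, miR-208b and miR-499 together held 22.6% and 23.5% of mature reads with every entry counted. With each miRNA counted once they held 11.4% and 11.9%, since some are listed at several loci. The endothelial miR-126a held 2.90% and 2.87% in either count. Smooth muscle miRNAs (miR-143 and miR-145a) held 7.94% and 6.82%. Pluripotent miRNAs (miR-302b, miR-302d, miR-367, miR-290a, miR-294 and miR-295) held 0.398% and 0.388%, and the liver miR-122 held 0.0421% and 0.0554%. With every entry counted, neural miRNAs (miR-124 and miR-9) held 0.0193% and 0.0148%, or 0.00484% and 0.00370% counted once. Those listed as erythroid (miR-144, miR-451a and miR-486a) held 0.219% and 0.273%, or 0.113% and 0.140% counted once. They were mostly miR-486a, with a log2 mean of 12.5 mature reads per entry against 7.0 for miR-451a. The part of any cell type in the values of the cluster was not tested, and in bulk hearts fewer cells of a type and less of a miRNA per cell cannot be told apart.

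Mature reads of the 6 hairpins added up to 149539 in replicate 1 and 158499 in replicate 2. Their summed share was 3.16% ± 0.19 (SD, n = 2), being 3.03% in replicate 1 (3.01% to 3.04%) and 3.30% in replicate 2 (3.28% to 3.31%, Wilson intervals at 95% confidence). The cluster was thus detected far above the floor of 3 reads, 6.07e-05% and 6.24e-05%, and its level differed between the replicates by more than read-counting error. Intervals and floors cover counting error only, since no molecular identifiers are mentioned in the sources used here.

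Although the hairpins share a transcript, their mature reads spanned 109-fold in replicate 1 and 154-fold in replicate 2, from miR-19a to miR-92a-1. MiR-92a-1 held most of the reads of the cluster, with 100633 mature reads in replicate 1 and 112216 in replicate 2. These were 67.3% (67.1% to 67.5%, Wilson interval) and 70.8% (70.6% to 71.0%) of the reads of the cluster, and its share of all mature reads was 2.19% ± 0.21 (SD, n = 2), rank 10 of the 471 entries listed in both replicates. Ranks count every entry, so a sequence listed at several loci takes a place at each of them. MiR-92a-1 lay between miR-335-3p (2.64%) and miR-378a-3p (2.08%), and the share of miR-378a-3p was within the spread of miR-92a-1 (2.04% and 2.33%). The same mature sequence is also listed for miR-92a-2 on chromosome X, with 79713 and 90257 reads, so the share, the rank and the span to miR-19a rest on how shared reads were credited, which is not given in the sources used here.

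MiR-20a had 28910 and 26766 mature reads, a share of 0.571% ± 0.020 (SD, n = 2) and rank 32. MiR-17, which has the same seed, had 16081 and 16157 mature reads, 0.331% ± 0.0076 and rank 51, tied with its overlapping entry. MiR-20a was thus higher than miR-17 in both replicates, by 1.80 and 1.66 times, and miR-92a-1 was higher than miR-20a by 3.48 and 4.19 times. The mature sequences of the cluster are 21 to 23 bases long, so reads were not scaled by length, but different sequences can be captured with different efficiency in small RNA libraries, and this was not measured.

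The other 3 hairpins were far lower. MiR-19b-1 had 1587 and 1345 mature reads (0.0300% ± 0.0029, rank 171) and miR-18a had 1407 and 1286 (0.0276% ± 0.0012, rank 175). The lowest was miR-19a, with 921 and 729 reads (0.0169% ± 0.0025, rank 197; SD, n = 2 for each). The step from miR-17 to miR-19b-1 was the largest between neighbours in this order, at 11.1 ± 1.3 times (SD, n = 2).

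Of the 5 neighbouring pairs, miR-19b-1 and miR-18a had shares that overlapped between the replicates, and the other 4 pairs did not overlap. Within each replicate miR-19b-1 was still the higher of the pair, by 1.13 and 1.05 times. With all reads of the precursor this order turned, at 1804 and 1798 for miR-18a against 1619 and 1382 for miR-19b-1. MiR-18a was 1.53 and 1.76 times as high as miR-19a. With 2 replicates, an exact permutation test of paired values cannot give a two-sided p below 0.5, so the order rests on the values alone.

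**Figure D1:**
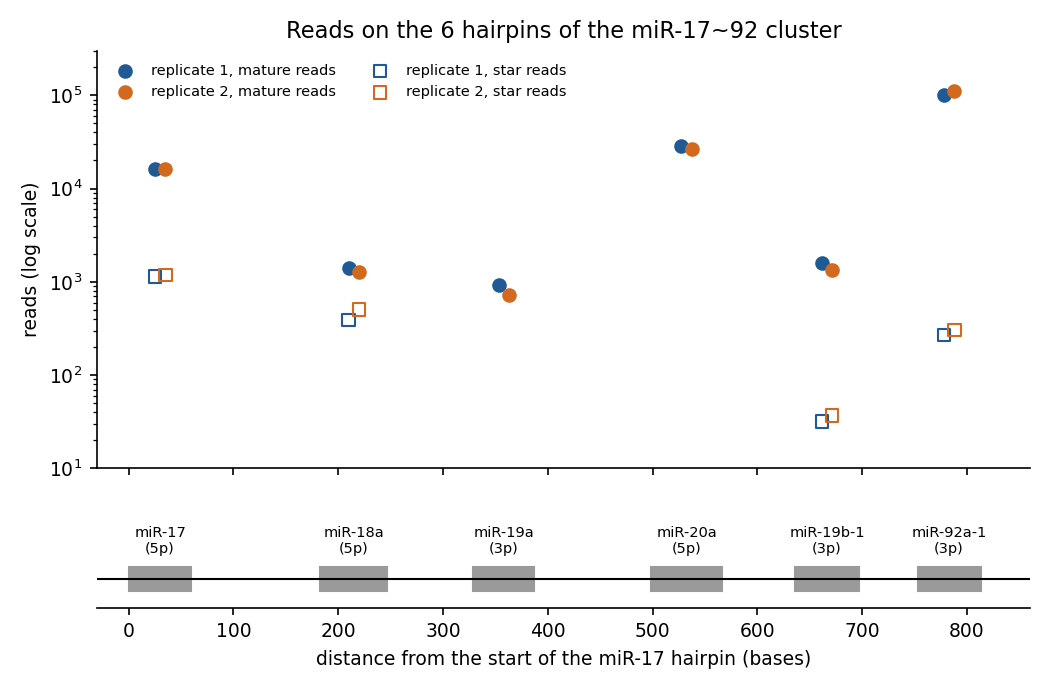
Reads (log scale) on the 6 hairpins against distance in bases from the start of miR-17, with filled circles for mature reads, open squares for star reads and grey boxes for the hairpins to scale. Mature reads lie between 16081 and 112216 in miR-17, miR-20a and miR-92a-1 and between 729 and 1587 in miR-18a, miR-19a and miR-19b-1, and star reads of miR-19a and miR-20a are 0 and not drawn.

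Star reads followed a different order from mature reads. Of the 1837 star reads of the cluster in replicate 1 and 2042 in replicate 2, miR-17 had 1147 and 1191, miR-18a 390 and 508, and miR-92a-1 268 and 306. MiR-19b-1 had 32 and 37 star reads, and miR-19a and miR-20a had 0 in both replicates. MiR-17 thus held 62.4% and 58.3% of the star reads of the cluster but 10.8% and 10.2% of its mature reads.

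As a share of mature plus star reads, the star arm of miR-18a reached 21.7% in replicate 1 (95% Wilson interval 19.9% to 23.7%) and 28.3% in replicate 2 (26.3% to 30.4%). This was the highest of the cluster, and 91.8% of the 427 entries compared for star reads had a lower mean share. In miR-17 the star share was 6.76% ± 0.15 and in miR-19b-1 2.33% ± 0.50, against 0.269% ± 0.0045 in miR-92a-1 (SD, n = 2 for each). The median over the 427 entries was 1.11%.

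The absence of star reads in miR-20a allows a share of up to 0.0104% in replicate 1 and 0.0112% in replicate 2, taking 3 reads as the limit. For miR-19a, with fewer reads, the limits were 0.326% and 0.412%. Of the 427 entries, 29.0% had no star read in either replicate. In miR-20a the position of the star arm bears on this value. The star sequence given in both tables, which holds no reads, starts 8 bases downstream of the 3p sequence of RefSeq and ends 9 bases downstream of it.
miR-20a star as deposited: acgagcacuuaaaguacugccag
miR-20a-3p of RefSeq: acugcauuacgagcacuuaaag
All reads of the miR-20a entry were mature reads, and the loop also held 0. The star of miR-17 starts and ends 1 base downstream of miR-17-3p, and those of miR-18a, miR-19b-1 and miR-92a-1 start at the RefSeq position. RefSeq gave no 5p sequence for miR-19a. How reads at the RefSeq position of miR-20a-3p were treated cannot be seen from the tables.

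Loop reads were few, 8 in replicate 1 and 5 in replicate 2 over the cluster. Of these, 7 and 4 lay on miR-18a and the rest on miR-92a-1.

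**Figure D2:**
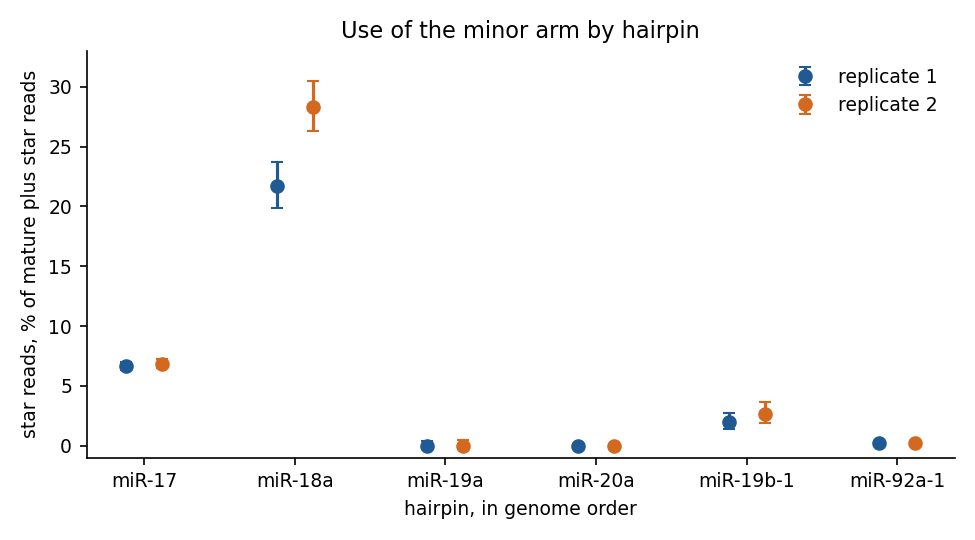
Star reads as percent of mature plus star reads for each hairpin in genome order, points for the replicates and bars for 95% Wilson intervals. MiR-18a lies at 21.7% and 28.3% with intervals that do not overlap, whereas the other 5 hairpins lie below 7% in both replicates.

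The second miR-17 entry, on chr14 from 115442870 to 115442928, overlaps the first by 23 bases, which are the mature sequence. It is shown because its mature reads, 16081 and 16157, equal those of the first entry, with the mature sequence in capitals.
miR-17, overlapping entry: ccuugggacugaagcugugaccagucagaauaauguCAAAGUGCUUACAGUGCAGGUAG
Here the mature sequence forms the 3p arm and its partner upstream had 0 reads. The minimum free energy of this fold was -13.7 kcal/mol against -23.6 kcal/mol for the hairpin. Its miRDeep2 score, a log-odds score that a locus is a true miRNA precursor, was -5.9 and -7.7.

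Scores of the 6 hairpins did not follow their reads. MiR-92a-1 scored 51000 and 57000, miR-18a 910 in both replicates, and miR-19b-1 820 and 700. MiR-17 scored 2.3, miR-19a 2.1 and miR-20a 2.0 in both replicates, so that miR-20a, with 28910 and 26766 reads, scored below miR-18a. Scores under 10 in both replicates were found in 228 of 471 entries, and in 17 of the 62 that reached 10000 mature reads in each replicate.

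MiR-92a-1 and miR-19b-1 have copies on chromosome X, miR-92a-2 (50095031 to 50095090) and miR-19b-2 (50095168 to 50095233, both on the minus strand of mm9), in the paralogous miR-106a-363 cluster. The consensus mature sequences of the copies are identical, so a read of exactly that sequence fits either hairpin. The miR-92a-2 entry held 79713 and 90257 mature reads, and the ratio of miR-92a-1 to miR-92a-2 was 1.25 ± 0.014 (SD, n = 2). The miR-19b-2 entry held 1564 and 1335 mature reads, and here the ratio was 1.01 ± 0.0051. The counts are close to equal at the miR-19b copies, whereas those of miR-92a-1 exceeded those of miR-92a-2 by 20920 and 21959 reads. Mature reads of miR-92a were thus not all counted alike at both loci, and why was not tested.

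The star arms of the copies differ, so star reads can be assigned to a hairpin. Capitals mark bases at which the star sequences of the copies differ, or which run past the end of the shorter. They were compared position by position from the 5′ end without gaps, so the ending cagc of both miR-19b stars is in capitals.
miR-92a-1 star: agguUgggauuUguCgcaAuGc
miR-92a-2 star: agguGgggauuGguGgcaUuAcU
miR-19b-1 star: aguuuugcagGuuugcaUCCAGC
miR-19b-2 star: aguuuugcagAuuugcaGUUCAGC
The miR-92a star arms differed at 5 of 22 positions (U5G, U12G, C15G, A19U and G21A). MiR-92a-1 had 268 star reads against 1 for miR-92a-2 in replicate 1, and 306 against 2 in replicate 2. MiR-92a-1 thus had 99.6% (95% Wilson interval 97.9% to 99.9%) and 99.4% (97.7% to 99.8%) of the star reads of both copies. For miR-19b the star reads were 32 against 0 and 37 against 2, so that miR-19b-1 had 100% (89.3% to 100%) and 94.9% (83.1% to 98.6%). The star reads of both pairs lay almost entirely on chromosome 14, in both replicates. How much of the mature reads came from either copy cannot be computed from star reads, since the ratio of the arms need not be the same in both hairpins.

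**Figure D3:**
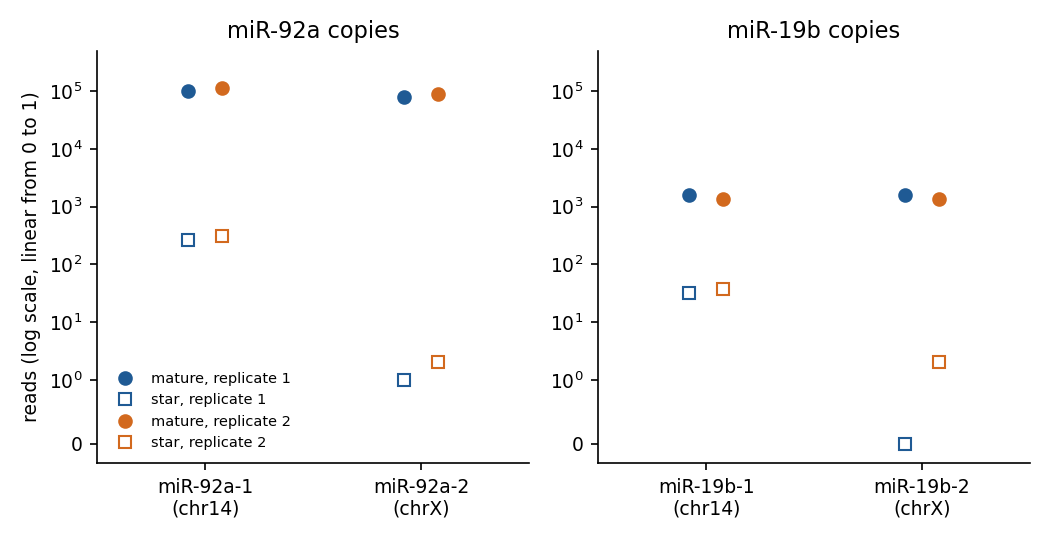
Mature reads (filled circles) and star reads (open squares) of the miR-92a and miR-19b copies on chromosomes 14 and X, on a log scale that is linear between 0 and 1. Mature reads are similar at both copies, while star reads fall from 268 and 306 to 1 and 2 for miR-92a, and from 32 and 37 to 0 and 2 for miR-19b.

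Of the 6 hairpins of the miR-106a-363 cluster, 5 were listed, miR-18b being the exception, as were all 3 of the miR-106b~25 cluster on chromosome 5. Summed mature reads of the chromosome 14 cluster were 1.72 ± 0.07 times those of miR-106a-363 and 1.81 ± 0.09 times those of miR-106b~25 (SD, n = 2 for each). The ratio to miR-106a-363 depended on the shared sequences. Without miR-92a and miR-19b, the ratio to miR-106a-363 was 13.6 ± 0.06, and by star reads it was 15.1 ± 0.4. Of the 120 and 138 star reads of miR-106a-363, 115 and 130 lay on miR-363. The members unique to the chromosome X cluster were low, miR-106a with 506 and 491 mature reads, miR-20b with 1184 and 1119, and miR-363 with 1791 and 1677. Against miR-106b~25, which shares no mature sequence with chromosome 14, leaving out miR-92a-1 and miR-19b-1 brought the ratio below 1, to 0.544 ± 0.068. This took reads from the chromosome 14 side only, while miR-25, with 47814 and 55096 mature reads, stayed in. Star reads gave 1.25 ± 0.11, but these sums hold unlike arms. Of the 1568 and 1536 star reads of miR-106b~25, 1151 and 976 were miR-106b-5p, which has the miR-17 seed. The chromosome 14 sum counts miR-20a as 0, with its star at a shifted position.

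Grouped by seed over all entries, the cluster held most reads of each of its 4 families when a sequence found at several loci was counted once. That count credits miR-92a and miR-19b wholly to chromosome 14. With every locus counted, the cluster held 43.2% of the miR-92 family, which is not most. The paralogs of the miR-17 family have the following sequences on the arm with the seed, which is in capitals.
miR-106a-5p: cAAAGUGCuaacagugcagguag
miR-20b-5p: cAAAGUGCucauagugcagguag
miR-93-5p: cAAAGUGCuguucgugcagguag
miR-106b-5p: uAAAGUGCugacagugcagaua
Counted from miR-17, miR-106a differed at 1 position (U10A), miR-20b at 2 (U10C and C12U) and miR-93 at 4. MiR-17 and miR-20a together held 72.6% ± 0.2 of the reads with this seed (SD, n = 2). MiR-93 followed with 13995 and 13702 reads. MiR-106b-5p had 1151 and 976 reads, listed as star reads, because most reads of that hairpin (18085 and 21886) lay on its 3p arm, which has another seed.

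Reads with the seed of miR-18a came from miR-18a alone. Those with the miR-19 seed came from miR-19a and miR-19b, and the part of the cluster was 61.2% ± 0.5 (SD, n = 2) with both miR-19b entries counted. In the miR-92 family, with 152216 and 170866 reads when each sequence was counted once, miR-92a held 65.9% ± 0.3 (SD, n = 2), all credited to chromosome 14 in this count. Counting both miR-92a loci lowered the part of miR-92a-1 to 43.2% ± 0.3. MiR-25-3p was next, with 47814 and 55096 reads.
miR-25-3p: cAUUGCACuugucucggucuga
It differs from miR-92a at 3 of the first 21 positions (U1C, C14U and C18U). The other sequences with this seed, miR-363, miR-32, miR-92b and miR-367, had between 61 and 1791 reads each. The miR-17 and miR-92 families together outnumbered those of miR-18 and miR-19 in both replicates, since the latter held 1407 and 1286 reads and 2508 and 2074 reads with miR-19b counted once.

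**Figure D4:**
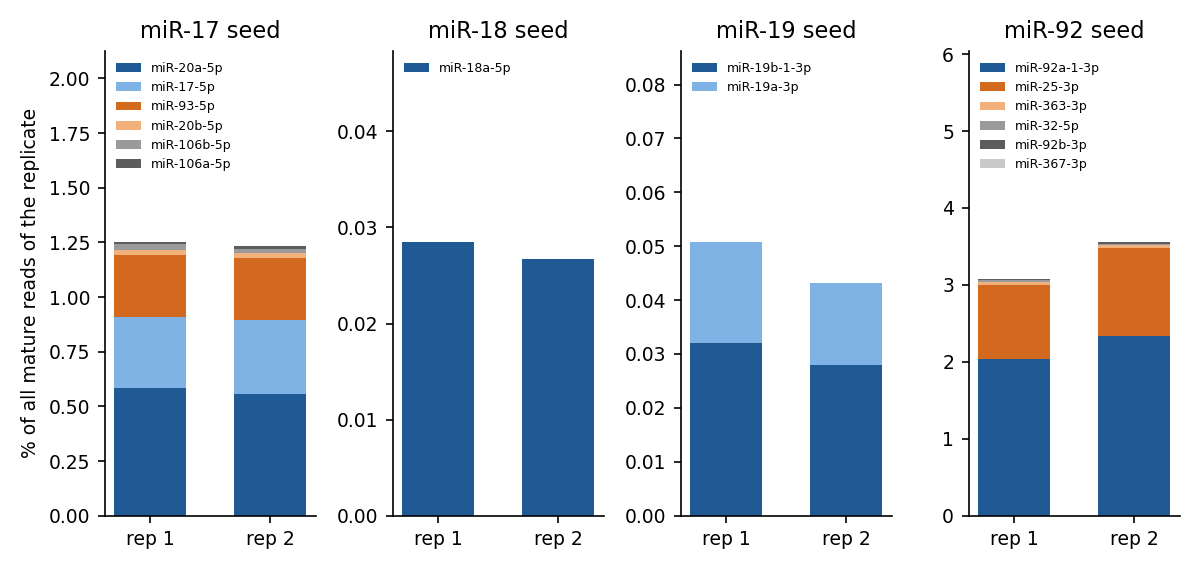
Percent of all mature reads of each replicate for the 4 seed families, each sequence counted once in the bars but at every entry in the total, with members of the chromosome 14 cluster in blue and other entries in orange and grey. The reads of miR-92a and miR-19b, also listed on chromosome X, are drawn in blue. Axes differ between panels, and the bars run from 0.0268% for the miR-18 family in replicate 2 to 3.56% for the miR-92 family in replicate 2.

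Between the replicates, 5 of the 6 hairpins differed in share (exact binomial test, Benjamini-Hochberg adjustment over 431 entries, adjusted p under 0.05), where 41.1% of all entries tested did. Calls depend on depth, and with at least 100 reads in sum 178 of 339 entries were called. The part called at the depth of the members was not computed. MiR-92a-1 and miR-17 were higher in replicate 2, as were 27.6% of all entries tested, and miR-19a, miR-19b-1 and miR-20a were lower, as were 13.5%. The test covers read-counting error only, and the differences were small. MiR-92a-1 had a log2 ratio of replicate 2 over replicate 1 of 0.20 (95% interval of counting error 0.19 to 0.21, adjusted p = 8.4e-217, exact binomial test) and miR-19a of -0.30 (-0.44 to -0.16, adjusted p = 0.00012, same exact test). MiR-19b-1 differed by -0.20 (adjusted p = 0.00071, exact test), miR-20a by -0.071 (adjusted p = 3.6e-08, exact test) and miR-17 by 0.047 (adjusted p = 0.01, exact test). MiR-18a did not pass, at -0.089 (-0.20 to 0.02, adjusted p = 0.2, exact test).

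Members of the cluster thus went in both directions. Their median absolute log2 ratio was 0.14, against 0.19 over all entries tested and 0.12 over the 187 that reached 1000 mature reads in each replicate. Over all entries, the coefficient of variation that edgeR terms biological was 15.2% (common dispersion). Here it may be technical, and the entries repeat sequences listed at several loci. Of the entries, 69.1% had a smaller absolute log2 ratio than miR-19a, the largest of the cluster. The call of miR-17 depended on scaling. With TMM or DESeq2 size factors its log2 ratio was -0.012 or -0.021 and did not pass (adjusted p = 0.62 and 0.33, exact binomial test), while miR-18a then passed (adjusted p = 0.021 and 0.013, same exact test), so that 1 hairpin was higher and 4 were lower in replicate 2.

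Of the 4 hairpins with star reads, the star share differed between replicates in 1, miR-18a (adjusted p = 0.00014, Fisher's exact test over 427 entries, of which 7.49% differed, or 10.6% of the 303 with a star read). MiR-19a and miR-20a, without star reads, could not differ. With all reads of the precursor in place of mature reads, the log2 ratio of miR-18a was 0.032. In miR-17, miR-19b-1 and miR-92a-1 the adjusted p was between 0.98 and 1 (Fisher's exact test), which does not show that they were equal.

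**Figure D5:**
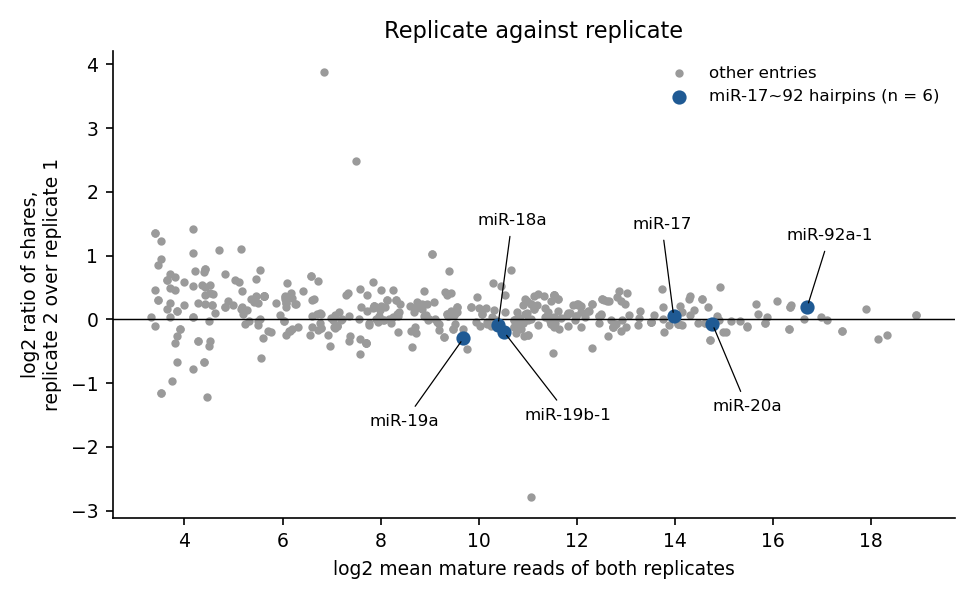
Log2 ratio of the shares of replicate 2 over replicate 1 against the log2 mean of mature reads for the 431 entries tested, with the 6 hairpins of the cluster in blue and all other entries, the overlapping miR-17 entry included, in grey. The hairpins lie between -0.30 (miR-19a) and 0.20 (miR-92a-1), where most entries of over 1000 reads also lie near 0.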

How the data were processed

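Total RNA of E9.5 wild type hearts was extracted with TRIZOL, and small RNA was sequenced on a HiSeq2500 from TruSeq libraries in 2 replicates. Per the labels, miRDeep2 was run by the authors on cleaned reads against mm9, and they deposited raw read counts for each precursor of a known miRNA together with the miRDeep2 score. Versions, read trimming and the handling of reads that map to several loci are not given in the sources used here. The deposited scores are rounded.

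Positions were written to count from 1 with both ends included, and 620 of 620 precursors then equalled the NCBIM37 sequence, the assembly of mm9. Names and mature sequences of RefSeq come from a GRCm38.p6 table and were matched by sequence only, with all 6 hairpins matched. Entries of the replicates were paired at 50% overlap of both precursors. The replicates were compared by a two-sided exact binomial test on mature reads and by Fisher's exact test on star and mature reads, over all entries with at least 20 reads in sum, with Benjamini-Hochberg adjustment. Without a second group, no edgeR quasi-likelihood test could be made. Seed families include an arm when nucleotides 2 to 8 match in either replicate. The genes to be named were the members, the paralogs, entries with a shared seed and the neighbours of a member in rank of share. The members and lists were chosen with earlier results of these data known. Software was Python 3.11.15, scipy 1.17.1, R 4.3.3, edgeR 4.0.16, DESeq2 1.42.0 and RNAfold 2.7.2. Alternatives changed the reads counted, the scaling, the minimum of reads and the replicates used.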

Additional observations from a re-analysis of the deposited data

How the results depend on the processing

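The summed share of the cluster was 4.33% instead of 3.16% when reads of a sequence entered the total once, which lowers that total, and to 3.49% with both overlapping miR-17 entries counted, an alternative chosen after seeing the data. Without 1 replicate it was 3.03% to 3.30%. The ratio to miR-106a-363 rose from 1.72 to 15.1 by star reads and to 13.6 with shared sequences left out, and was 1.67 to 1.76 without 1 replicate. The ratio to miR-106b~25 fell from 1.81 to 1.25 by star reads, which in miR-106b~25 were mostly miR-106b-5p. It turned to 0.544 with miR-92a-1 and miR-19b-1 left out of the chromosome 14 side only, and was 1.75 to 1.87 without 1 replicate. The number of hairpins that differed between replicates was 5 under all 6 alternatives run, although miR-17 turned to -0.012 with TMM and -0.021 with DESeq2 size factors (log2 ratio), where miR-18a passed instead. MiR-18a turned to 0.032 with all reads of the precursor. Over all entries, calls were 119 higher and 58 lower in replicate 2, but 78 and 98 with DESeq2 size factors and 86 and 92 with TMM. Star shares differed in 1 hairpin under both minimums tried. The causes were not tested.

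No paired analysis was possible because the small RNA libraries used here form 1 group. The binomial and Fisher tests need both replicates, so they were not run without either. Depth limits the star reads of the copies on chromosome X, which were at most 2.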
